A study of Mus musculus with 37 samples.

Results

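The 40 genes described here are S phase and DNA replication genes, taken as a list of mouse gene symbols given by name. The list was chosen with earlier results of these data known, and its rule used no measured value other than a minimum count. All 40 had at least 20 UMIs (unique molecular identifiers, each counting 1 captured transcript molecule) in each of 3 count tables, which list 27407, 20500 and 27547 genes. Of the 40, 40 were tested in whole organoids, 39 in the first experiment on sorted cells, where Blm was too low for the count filter, and 40 in the irradiation experiment.

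The study cultured epithelial organoids from the jejunum of adult mice (aged between 6 and 12 weeks, both sexes) and asked how vasoactive intestinal peptide (VIP), a neuropeptide, acts on them. Whole organoids came from C57Bl/6 mice and were either left untreated (n = 3 mice) or given 100 nM VIP for 72 h (n = 4 mice). Lgr5-EGFP+ cells, the stem and progenitor fraction, were sorted from organoids of Lgr5-EGFP-IRES-CreERT2 reporter mice that had been untreated or given 100 nM VIP for 72 h (n = 4 mice each). In the irradiation experiment Lgr5-EGFP+ cells were sorted from organoids of 4 further reporter mice, each in 4 arms: untreated or VIP for 48 h, with 6 Gy of X-rays beforehand or without irradiation. All sorted cells, controls included, carry the reporter allele, in which the Lgr5 locus drives EGFP and the CreERT2 recombinase, and this allele is known to be silenced in a part of the crypts.

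S phase begins once the origins of replication have been licensed by loading of the MCM helicase and cyclin E and CDK2 activity rises. E2F transcription factors, released from the retinoblastoma protein, switch on most genes of this module, so that their transcripts peak at the border between G1 and S. In the intestinal crypt the module marks cycling stem and transit-amplifying cells, and it is shut down when cells leave the cycle or when p53 induces the CDK inhibitor p21 (Cdkn1a) after DNA damage.

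Promoter sequences of 300 bases, 250 before and 50 after the annotated start, were given for 30 of the 40 genes (RefSeq, GRCm38.p6). The E2F motif was searched on both strands in 4 spellings, TTTCCCGC, TTTCGCGC, TTTGCCGC and TTTGGCGC. It was found in the promoters of 13 of these 30 genes (43.3%) and of 704 of 27025 genes (2.605%). The 30 genes have 34 promoters, and a gene was counted if any of its promoters matched. The 13 genes are Casp8ap2, Cdc6, Cdca7, Clspn, Dtl, Hells, Mcm5, Mcm6, Mcm7, Pola1, Pold3, Ubr7 and Uhrf1. A CCAAT box was found in 20 of the 30 (66.7%) against 41.1% of all, and the CHR motif of late cell cycle genes, TTTGAA, in 5 of the 30 (16.7%) against 20.2%. The stretches of 80 bases below lie before the start of 4 genes to which the results return, written 5′ to 3′ on the gene's strand. Capitals mark the E2F motif in Mcm5, Mcm6 and Cdca7, with 2 overlapping matches in Mcm5 and 3 matches in Mcm6, of which 2 overlap.
Mcm5, chr8:75109322-75109401, plus strand: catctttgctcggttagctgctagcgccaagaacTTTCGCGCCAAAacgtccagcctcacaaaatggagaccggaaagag
Mcm6, chr1:128359741-128359820, minus strand: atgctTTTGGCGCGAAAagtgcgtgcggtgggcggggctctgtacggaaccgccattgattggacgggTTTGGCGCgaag
Cdca7, chr2:72476079-72476158, plus strand: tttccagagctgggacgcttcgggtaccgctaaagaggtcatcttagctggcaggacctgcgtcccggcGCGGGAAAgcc
Rrm2, chr12:24708161-24708240, plus strand: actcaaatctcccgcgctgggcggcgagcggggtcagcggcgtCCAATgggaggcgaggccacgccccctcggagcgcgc
The promoter of Rrm2 held none of the 4 E2F spellings, and the capitals in its stretch mark a CCAAT box. A match describes letters in a window and is not evidence of binding.

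The samples held between 3722716 and 6330404 UMIs in whole organoids, between 575242 and 1104126 in the first sorted experiment and between 1075715 and 1876729 in the irradiation experiment. Levels are given below as CPM, UMI counts scaled to the same library total in every sample after TMM scaling, a correction for differences in composition between samples. Lgr5 ranged from 45.2 to 116 CPM in whole organoids and from 12.6 to 56.3 CPM in the sorted samples, so that its transcript was not higher after the sort. Olfm4, another stem cell marker, was at 1144 to 3722 CPM in whole organoids and at 3625 to 6031 CPM in the first sorted experiment. The summed stem cell markers were at 2497 to 5386 and 5019 to 7766 CPM. In untreated non-irradiated cells of the irradiation experiment Olfm4 was at 2468 to 3507 CPM and the summed stem markers at 4108 to 5295 CPM. These ranges lay within those of whole organoids, as did those of the irradiated arms. With VIP alone they were 4202 to 4749 and 6102 to 6641 CPM. The summed enterocyte markers were 14417 to 18995 CPM in whole organoids and 1589 to 4259 CPM in sorted cells. Other differentiated cell types were not reduced in this way. In untreated whole organoids the summed Paneth, goblet and enteroendocrine markers were 13380 to 26253, 5541 to 7563 and 941 to 999 CPM. They were 5477 to 16834, 4172 to 8366 and 595 to 2095 CPM in untreated cells of the first sorted experiment. In untreated non-irradiated cells of the irradiation experiment they were 10641 to 15643, 5519 to 8554 and 3101 to 4104 CPM. Epcam, which marks epithelium, was at 792 CPM or more in every sample. Pecam1 and Ptprc, of endothelial and blood cells, did not exceed 3.01 CPM in any sample. The tables come from separate library sets, so levels were set side by side between them but not tested.

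Taken over the 40 genes, the S phase module made up a small share of the transcripts. Its summed level was 2702, 2434 and 2905 CPM in untreated whole organoids of mice 1 to 3 and 2746, 2414, 2724 and 2730 CPM in VIP-treated ones of mice 1 to 4. In Lgr5-EGFP+ cells at 72 h it was 3535, 3125, 3029 and 3252 CPM untreated and 3344, 3243, 3273 and 3588 CPM with VIP. In both experiments the treated and untreated ranges overlapped. In the irradiation experiment the lowest and highest sums were 3091 and 3272 CPM in untreated non-irradiated cells, 3301 and 3606 with VIP alone, 3038 and 3287 after irradiation alone, and 3062 and 3308 after irradiation with VIP. The samples with VIP alone thus all lay above the untreated non-irradiated ones, while the irradiated arms overlapped with them. In bulk RNA a smaller share of cells in S phase and less RNA per cell cannot be told apart.

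**Figure D1:**
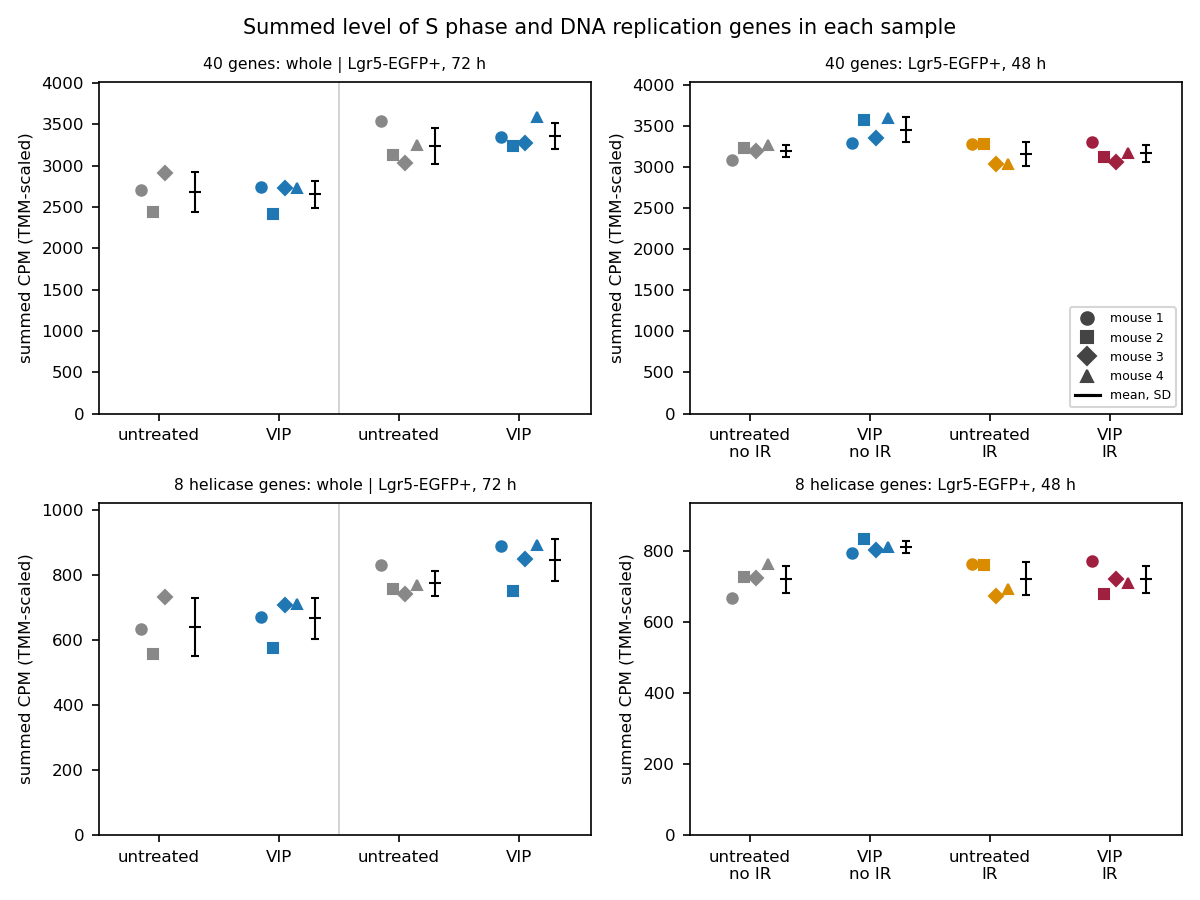
Summed CPM (TMM-scaled, linear axes from 0) of the 40 genes (top) and of the 8 origin licensing and helicase genes (bottom) in each sample, with 1 symbol per mouse and the mean and SD beside each group. Left, whole organoids and then Lgr5-EGFP+ cells at 72 h, right, the irradiation experiment at 48 h (IR, irradiated). The 8 genes of the bottom panels, titled helicase genes, include the loader Cdc6 and Gmnn, which blocks relicensing. For these 8 the 4 samples with VIP and no irradiation lie between 795 and 836 CPM, above the 670 to 763 CPM of the untreated non-irradiated samples.

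In whole organoids, none of the 40 genes passed the threshold (adjusted p of 0.05 or less, edgeR quasi-likelihood test with the mouse as a block) after 72 h of VIP, where 4.82% of all genes tested did. An unadjusted p under 0.05 was reached by Prim1 and Tyms, both lower (2 of 40, beside 6.49% of all genes in that direction). No member had groups without overlap, higher (beside 5.63% of all genes) or lower (beside 4.08%). DESeq2 also called none of the members in any of the 4 VIP comparisons. The median log2 fold change over the 40 was −0.02, beside 0.00 for all genes, and 15 of 40 estimates were above 0. SEs ran from 0.09 to 0.18, but the values also depended on the processing and the samples used. Over 14 alternative settings the estimate of Rrm2 ran from 0.04 to 0.32 and that of Cdc6 from 0.14 to 0.48. The calls over all genes ran from 0 to 1668. For 38 of the 40 genes the 95% interval lay wholly within a 1.5-fold change either way, a limit chosen after the values were seen, as it did for 60.3% of all genes tested. Mouse 4 has no untreated sample and adds nothing to these fold changes.

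The lowest estimates that went the same way in all 3 mice were those of Prim1, Dscc1 and Tyms, and none passed. Prim1, the catalytic primase subunit that starts each new strand, was at 65.7, 59.3 and 89.5 CPM untreated and 57.2, 46.6 and 70.2 CPM with VIP in mice 1 to 3 (log2 fold change −0.30, SE 0.10, adjusted p = 0.130). It was lower with VIP within each mouse, but the ranges overlapped and the change did not pass. Dscc1, which helps load the sliding clamp and serves sister chromatid cohesion, had −0.30 (SE 0.17, adjusted p = 0.414), and Tyms, which makes thymidylate, −0.20 (SE 0.09, adjusted p = 0.287). The largest increases shared by all 3 mice were Cdc6, the loader of the MCM helicase (0.30, SE 0.15, adjusted p = 0.340), Rrm2, the ribonucleotide reductase subunit whose level limits dNTP supply (0.16, SE 0.09, adjusted p = 0.449), and Mcm7 (0.08, SE 0.09, adjusted p = 0.750). With the first technical library of each culture alone, Rrm2 had 0.32 (adjusted p = 0.0440) and was the only one of the 40 past the threshold. Gins2, a subunit of the GINS complex of the active helicase, and Gmnn (geminin, which blocks relicensing) had log2 fold changes of 0.00 (95% interval −0.24 to 0.24) and −0.00 (−0.22 to 0.22).

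Among 10 genes that stand for the roles of the module and were followed in every experiment (Ccne2, Cdc6, Exo1, Gins2, Gmnn, Mcm5, Pcna, Rrm2, Slbp and Tyms), the estimates ran from −0.26 for Slbp to 0.30 for Cdc6. Mcm2 and Mcm3, the helicase subunits outside the list, had −0.04 (SE 0.10) and 0.14 (SE 0.09), Ccne1 (cyclin E1) 0.12 (SE 0.15) and E2f1 −0.09 (SE 0.12).

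Among their neighbours in the pathway, 0 of 57 further DNA replication genes changed and 1 of 36 regulators of the G1 to S transition did. Cdkn1a, encoding p21, rose (0.58, SE 0.12, adjusted p = 0.00930 by the same edgeR test), from 265, 241 and 176 CPM to 366, 473 and 215 CPM in mice 1 to 3. Ccnd1 (cyclin D1) had 0.29 (SE 0.10, adjusted p = 0.158). Goblet markers moved in the same organoids, 7 of 11 having risen with a median of 0.52, as did 6 of 13 dissociation response genes. The enterocyte markers summed to 18383 to 18995 CPM untreated and 14417 to 17434 CPM with VIP, while among 13 of them tested 2 rose and 2 fell, with a median log2 fold change of 0.03. The part of these shifts in the S phase values was not tested.

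In Lgr5-EGFP+ cells after 72 h of VIP, 0 of 39 genes passed the threshold, where 0.0885% of all genes tested did, and 1 of 39 (Mcm7) had an unadjusted p under 0.05, beside 5.5% of all genes. The median log2 fold change was 0.03, with within-mouse medians of −0.15, 0.04, 0.14 and 0.21 in mice 1 to 4, and SEs were wider (0.14 to 0.36), so that the 95% interval stayed within 1.5-fold for 17 of 39 genes and for 40.1% of all genes tested. At this depth smaller changes could not be shown. The genes that went one way in all 4 mice were Mcm7 (0.32, SE 0.15, adjusted p = 0.884) and Nasp, a histone chaperone (0.22, SE 0.16, adjusted p = 0.935), both higher, and Tipin, of the fork protection complex (−0.13, SE 0.16, adjusted p = 0.961), and Prim1 (−0.12, SE 0.18, adjusted p = 0.967), both lower. Mcm7 was at 149, 143, 134 and 139 CPM untreated and at 156, 147, 203 and 210 CPM with VIP (mice 1 to 4), and the ranges of its groups overlapped. For Nasp they did not (1 of 39 higher, beside 1.43% of all genes, and 0 of 39 lower, beside 1.2%).

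Of the 10 genes followed in every experiment, Exo1, an exonuclease of mismatch repair and strand resection, had the largest estimate, 0.60 (95% interval −0.06 to 1.27). Ccne2 (cyclin E2) had the lowest, −0.26 (−0.79 to 0.27). Pcna, the sliding clamp, was at 178 to 215 CPM untreated and 174 to 246 CPM with VIP (log2 fold change 0.11, 95% interval −0.17 to 0.40), and Slbp, which binds the stem-loop of histone mRNAs, had 0.00 (−0.51 to 0.51). No gene of the 53 further replication genes or the 29 regulators tested passed. Cdkn1a had −0.44 (SE 0.19, adjusted p = 0.884), and Ccnd1 0.38 (SE 0.16, adjusted p = 0.884).

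The test of whether VIP acted differently in sorted cells and whole organoids found 0 of 40 genes, where 0.147% of all genes passed. At an unadjusted p under 0.05 there were likewise 0 of 40, beside 6.24% of all genes, and DESeq2 called none of the 40. The median difference of the log2 fold changes was 0.04. For 14 of 40 genes the 95% interval of the difference stayed within 1.5-fold, beside 18.6% of all genes tested. The difference was largest for Exo1, at 0.59 (95% interval −0.13 to 1.30). The compartments come from different mice, strains and library sets, which cannot be told apart from the compartment itself.

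**Figure D2:**
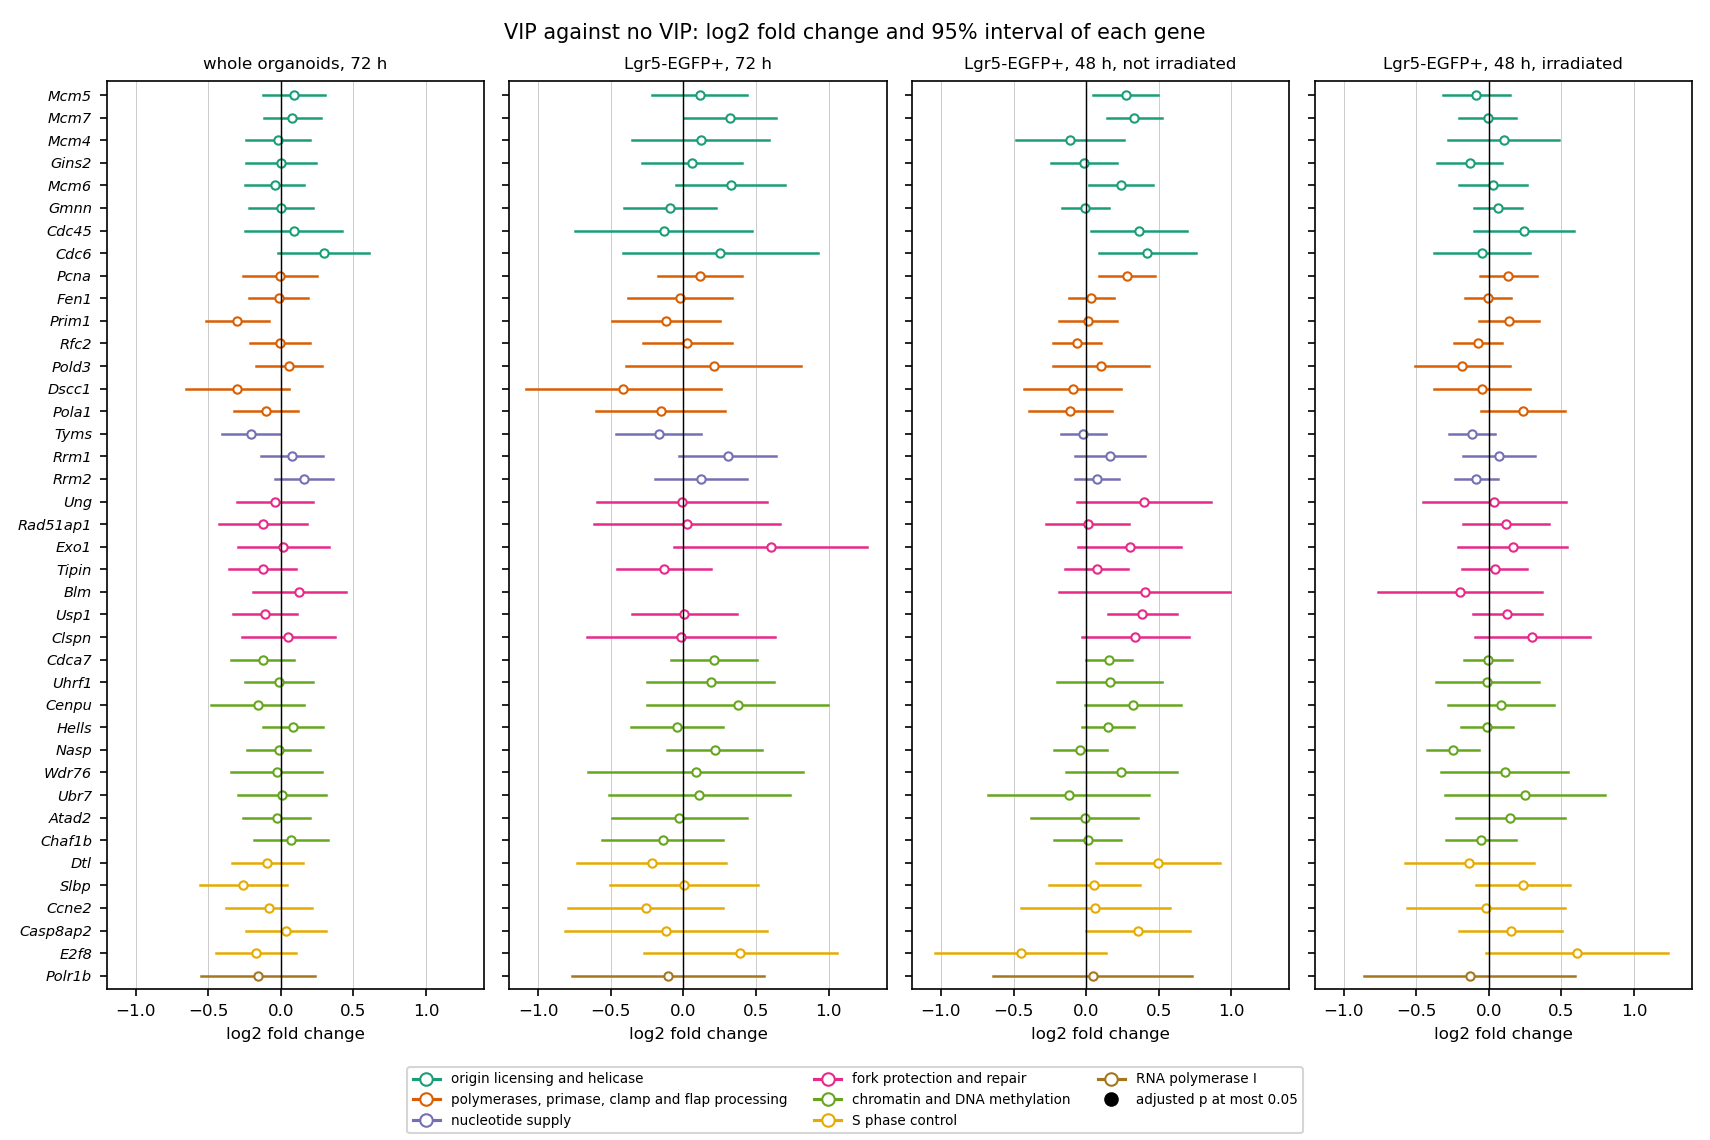
Log2 fold change with VIP and its 95% interval for each of the 40 genes, coloured by role, in whole organoids and Lgr5-EGFP+ cells at 72 h and in non-irradiated and irradiated Lgr5-EGFP+ cells at 48 h. No point is filled, since no gene had an adjusted p of 0.05 or less, and in non-irradiated cells 29 of 40 estimates lie above 0.

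In the irradiation experiment, after VIP for 48 h without irradiation, none of the 40 genes passed the threshold, where 0.742% of all genes tested did. Of the 40 estimates 29 were above 0, and the median log2 fold change was 0.09 against 0.00 for all genes. An unadjusted p under 0.05 was reached by 8 of 40 genes, all of them higher with VIP, beside 6.67% of all genes tested in that direction. They were Mcm5, Mcm6, Mcm7, Cdc6 and Cdc45, which license origins or form the helicase, and Pcna, Usp1 and Dtl. The groups did not overlap, with every VIP sample above every untreated one, for Mcm5, Mcm6, Mcm7, Pcna, Usp1 and Casp8ap2 (6 of 40, beside 3.58% of all genes), and 0 of 40 were lower without overlap, beside 3.08%. The within-mouse medians over the 40 genes were 0.07, 0.18, 0.07 and 0.15 in mice 1 to 4.

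Mcm7 came closest to the threshold. It was at 140.5, 151, 177 and 195 CPM in untreated cells and at 195, 207, 209 and 223 CPM with VIP, which gave 0.33 on the log2 scale (SE 0.09, adjusted p = 0.0927). In a fit of these 8 samples alone it was the only one of the 40 to pass. Mcm5 was at 91.6, 123, 115 and 108 CPM untreated and 136, 138, 123 and 132 CPM with VIP (0.27, SE 0.11, adjusted p = 0.299). Mcm6 was at 60.2, 71.3, 68.1 and 72.5 CPM untreated and 84.1, 82.0, 79.2 and 76.5 CPM with VIP (0.24, SE 0.11, adjusted p = 0.360).
Mcm3, a further subunit of the same hexamer that is not among the 40, passed. Of 56 further replication genes tested it was the only 1 to pass. It was at 63.4, 66.3, 64.7 and 55.2 CPM untreated and at 84.9, 91.8, 77.2 and 99.0 CPM with VIP, and rose by 0.50 on the log2 scale (SE 0.11, adjusted p = 0.0283 by the same edgeR test, higher in 4 of 4 mice). The call for Mcm3 was not recomputed under other processing settings. Of the remaining subunits, Mcm2 had −0.08 (SE 0.17) and Mcm4 −0.11 (SE 0.18).

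The largest increases shared by all 4 mice were Ung (uracil removal, 0.40, SE 0.22, adjusted p = 0.503), Usp1 (a deubiquitinase acting on PCNA, 0.39, SE 0.11, adjusted p = 0.107) and Casp8ap2 (histone gene expression, 0.36, SE 0.17, adjusted p = 0.406). Pcna went from 131, 169, 160.2 and 152 CPM to 188, 206, 171 and 180.4 CPM (0.28, SE 0.09, adjusted p = 0.168), so that the groups just cleared each other. Other members showed no such shift: Tyms had −0.02 (95% interval −0.17 to 0.14), Gins2 −0.01 (−0.24 to 0.21), Gmnn −0.00 (−0.17 to 0.16) and Rrm2 0.08 (−0.07 to 0.23). By role, all 7 fork protection and repair genes had estimates above 0 (median 0.34), as did 5 of the 8 origin licensing and helicase genes (median 0.26). The 7 genes of polymerases, primase, clamp and flap processing had a median of 0.01. Over all genes tested, 4932 of 9976 estimates were above 0. Only 1 of the 7 fork protection and repair genes, Usp1, had an unadjusted p under 0.05.

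In the same cells Cdkn1a fell by 0.57 on the log2 scale (SE 0.10, adjusted p = 0.00497), from 254 to 354 CPM untreated to 160.3 to 236 CPM with VIP. The summed stem cell markers were 4108 to 5295 CPM untreated and 6102 to 6641 CPM with VIP, and the summed Paneth markers 10641 to 15643 and 9095 to 10338 CPM. Of 12 enterocyte markers tested 2 fell and 11 had estimates below 0. The part of these marker shifts in the values of the S phase genes was not tested.

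VIP after irradiation left no member past the threshold either (0 of 40, where 0.221% of all genes passed). Only Nasp had an unadjusted p under 0.05 (1 of 40, beside 5.75% of all genes), and no member had groups without overlap (0 of 40 higher and 0 of 40 lower, beside 1.45% and 1.44%). The median log2 fold change was 0.03, with within-mouse medians of 0.03, −0.02, −0.04 and 0.04. The 95% interval stayed within 1.5-fold for 34 of 40 genes, beside 58.4% of all genes tested. Nasp, at 131, 141, 112 and 112 CPM after irradiation alone and 107, 115, 97.7 and 101 CPM with VIP as well, had −0.24 (SE 0.09, adjusted p = 0.590) and was lower in 4 of 4 mice. The others that went one way in every mouse were Prim1 (0.14, SE 0.10, adjusted p = 0.962), Rad51ap1 (0.12, SE 0.14, adjusted p = 0.975), Rrm1 (0.07, SE 0.12, adjusted p = 0.983) and Rfc2 (−0.07, SE 0.08, adjusted p = 0.975). The 10 genes followed in every experiment ran from −0.13 for Gins2 to 0.23 for Slbp. Mcm5, Mcm7 and Mcm3 had log2 fold changes of −0.09, −0.01 and 0.03 here. Cdkn1a, at 588 to 697 CPM without VIP and 615 to 699 CPM with it, had 0.03 (SE 0.09). Of 12 enterocyte markers 2 fell and 11 had estimates below 0 here too.

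**Figure D3:**
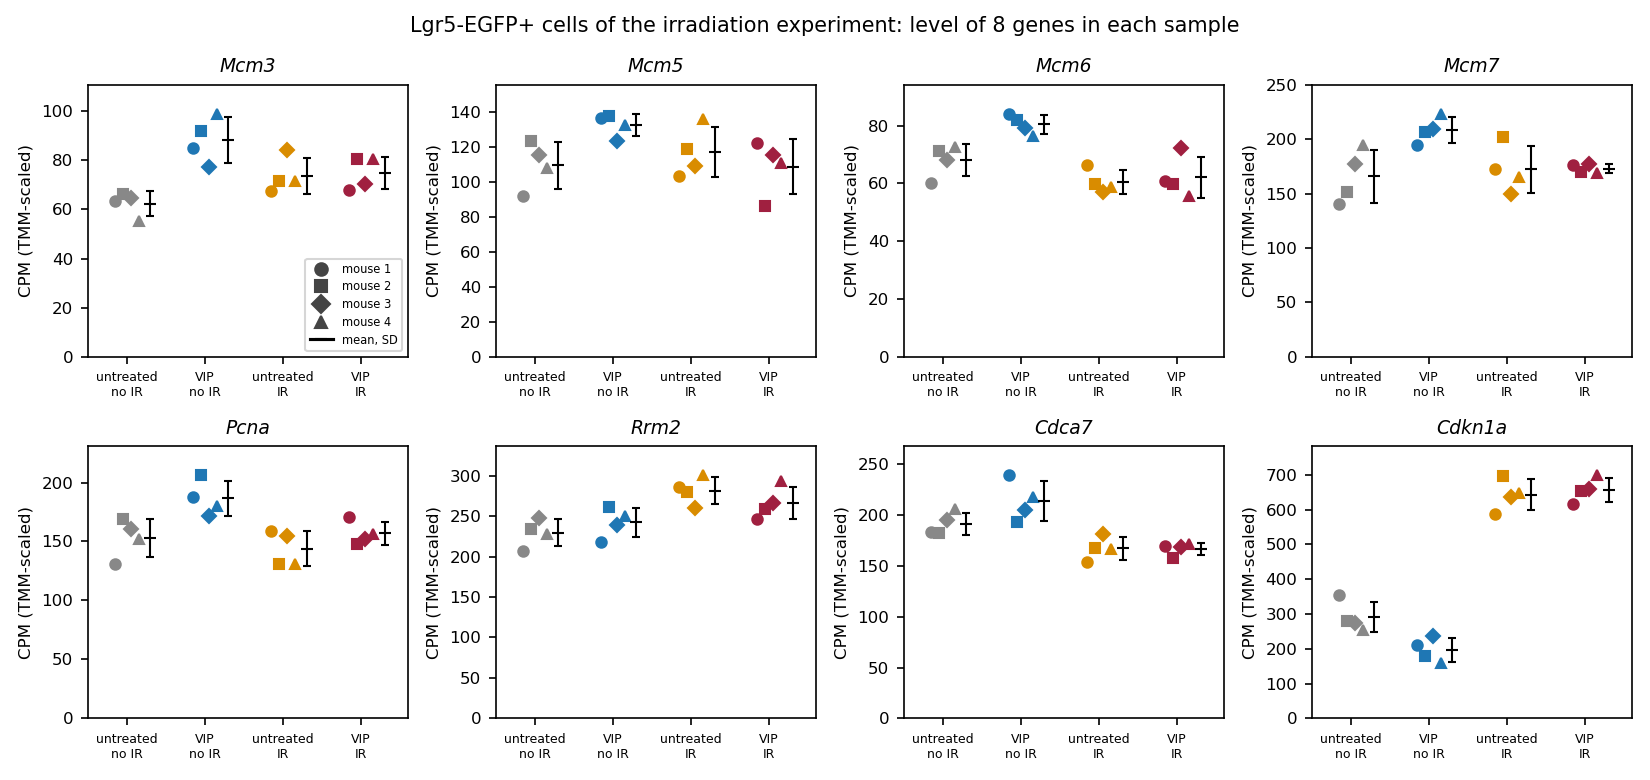
CPM (TMM-scaled, linear axes from 0) of 8 genes in each Lgr5-EGFP+ sample of the irradiation experiment, with 1 symbol per mouse and the mean and SD beside each group (IR, irradiated). Mcm3, Mcm5, Mcm6 and Mcm7 have their highest mean in the group with VIP and no irradiation, Rrm2 is above the untreated non-irradiated samples in all 4 samples irradiated without VIP, and Cdkn1a is at 588 CPM or more in all 8 irradiated samples.

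Irradiation of untreated organoids changed the p53 response widely, while the share of S phase genes that rose was close to that of all genes tested. Of 27 p53 targets 18 rose (median log2 fold change 0.85), and Cdkn1a rose by 1.15 (SE 0.10, adjusted p = 6.06e-08), to 588, 697, 638 and 647 CPM from 354, 281, 275 and 254 CPM. Of the 40 S phase genes 1 rose, where 4.46% of all genes tested passed and 2.87% rose. An unadjusted p under 0.05 was reached by 7 of 40, beside 16.7% of all genes. The median log2 fold change was −0.09, but the within-mouse medians were 0.09, 0.08, −0.09 and −0.23 in mice 1 to 4, and without 1 mouse at a time it lay between −0.079 and −0.031. For 28 of the 40 the 95% interval stayed within 1.5-fold, beside 52.6% of all genes tested.

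That gene was Rrm2. It was at 208, 235, 248 and 228 CPM in non-irradiated and at 286, 280.2, 259.9 and 301 CPM in irradiated untreated cells of mice 1 to 4, so that every irradiated sample lay above every control. It rose by 0.30 on the log2 scale (SE 0.07, adjusted p = 0.0145, higher in 4 of 4 mice). The call did not hold without mouse 1, 2 or 4 (adjusted p = 0.0580, 0.0536 and 0.172), in the 8 samples alone (0.0531) or with all genes of any count (0.0792), while the estimate stayed between 0.25 and 0.38. The partner subunit Rrm1 had −0.02, and Tyms −0.06 (95% interval −0.22 to 0.09). Rrm2 (ENSMUSG00000020649) lies on chr12:24708241-24714146, plus strand.

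Cdc6 (0.37, SE 0.17, adjusted p = 0.250) and Nasp (0.24, SE 0.09, adjusted p = 0.140) were higher in 4 of 4 mice without passing. E2f8, a repressor of E2F target genes, had the lowest estimate, −0.70 (SE 0.30, adjusted p = 0.225), but was among the least abundant members at 15.1, 7.51, 14.3 and 14.6 CPM without and 10.6, 6.04, 5.80 and 8.38 CPM with irradiation. Wdr76 (−0.45, SE 0.20, adjusted p = 0.262), a protein linked to DNA damage sites, and Cdca7 (−0.19, SE 0.08, adjusted p = 0.191), which recruits the HELLS remodeller to chromatin, were also lower in 4 of 4 mice. The 10 genes followed throughout ran from −0.17 for Slbp to 0.37 for Cdc6. Groups did not overlap for Nasp and Rrm2 on the high side (2 of 40, beside 4.64% of all genes) and for Cdca7 and Wdr76 on the low side (2 of 40, beside 3.84%). Of 56 further replication genes tested none passed. Of the regulators, Ccnd1 rose as well as Cdkn1a (0.45, SE 0.11, adjusted p = 0.0150).

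With VIP present, Cdca7 and Mcm6 fell after irradiation. That is 2 of 40 genes, where 7.78% of all genes tested changed and 3.46% fell. The median log2 fold change was −0.11, with 29 of 40 estimates below 0, and the within-mouse medians were 0.02, −0.12, −0.13 and −0.22 in mice 1 to 4. Cdca7 was at 239, 193, 205 and 217 CPM with VIP alone and at 169, 158, 169 and 172 CPM with VIP after irradiation, and fell by 0.36 on the log2 scale (SE 0.08, adjusted p = 0.00396, lower in 4 of 4 mice). Mcm6 was at 84.1, 82.0, 79.2 and 76.5 CPM and at 60.9, 59.7, 72.1 and 55.7 CPM, and fell by 0.37 (SE 0.11, adjusted p = 0.0330, lower in 4 of 4 mice). In neither gene did the groups overlap. The call for Mcm6 was lost without mouse 1, 2 or 4 (adjusted p = 0.101, 0.145 and 0.169), with DESeq2 (0.157), with all genes of any count (0.0776) and in the 8 samples alone (0.0517), Cenpu passing in its place in the last 2 of these and Wdr76 without mouse 2, whereas Cdca7 passed under all 12 alternatives (adjusted p from 0.00365 to 0.0387). Cdca7 (ENSMUSG00000055612) lies on chr2:72476159-72486893, plus strand, and Mcm6 (ENSMUSG00000026355) on chr1:128331590-128359664, minus strand.

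The groups also did not overlap for Mcm5, Mcm7 and Pcna, all lower, which with Cdca7 and Mcm6 made 5 of 40, beside 6.53% of all genes tested, and 0 of 40 were higher without overlap, beside 6.26%. An unadjusted p under 0.05 was reached by 9 of 40, all lower, beside 11% of all genes in that direction. The log2 fold changes of Mcm5, Mcm7 and Pcna were, in this order, −0.27 (SE 0.11, adjusted p = 0.142), −0.27 (SE 0.09, adjusted p = 0.0790) and −0.24 (SE 0.09, adjusted p = 0.109). Wdr76 (−0.58, SE 0.19, adjusted p = 0.0645) and Cenpu, a centromere protein (−0.50, SE 0.16, adjusted p = 0.0581), had the lowest estimates among genes lower in every mouse, and Dscc1 (0.11, SE 0.16, adjusted p = 0.760) was the only one of the 40 that was higher in every mouse. Of the 10 genes followed throughout, Mcm5 had the lowest estimate and Rrm2 the highest. Rrm2 had 0.14 (95% interval −0.01 to 0.29). All 7 fork protection and repair genes had estimates below 0, with a median of −0.15, beside 4967 of 9976 genes tested. Of these 7, 0 had an unadjusted p under 0.05. The control arm of this comparison, VIP without irradiation, is the treated arm of the comparison above, so its samples enter both sets of values.

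Among 56 further replication genes, Pold2 (the small subunit of polymerase delta, −0.38, SE 0.08, adjusted p = 0.00271), Tk1 (thymidine kinase, −0.33, SE 0.09, adjusted p = 0.0260) and Ssrp1 (of the FACT histone chaperone, −0.30, SE 0.07, adjusted p = 0.00853) fell, each in 4 of 4 mice. That is 3 of 56, where 3.46% of all genes tested fell. Cdkn1a rose by 1.75 (SE 0.10, adjusted p = 2.37e-11) and Ccnd1 by 0.82 (SE 0.11, adjusted p = 1.18e-05), along with the regulators Ccnd2 (0.30, adjusted p = 0.00396) and Cdkn1c (0.55, adjusted p = 0.0373). Of 27 p53 targets 20 rose.

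Markers of other cell types moved with irradiation too. In untreated and VIP-treated cells, 10 and 9 of 11 Paneth, 7 and 5 of 11 goblet, 5 and 9 of 10 enteroendocrine and 4 and 1 of 12 enterocyte markers rose, and 3 and 4 of 13 stem cell markers fell, a list that includes Cdca7 and of which 1 rose in VIP-treated cells. The summed Paneth markers were 10641 to 15643 CPM without and 15524 to 29908 CPM with irradiation in untreated cells, and 9095 to 10338 against 15548 to 18009 CPM in VIP-treated cells. The summed stem markers were 4108 to 5295 against 3148 to 3688 CPM, and 6102 to 6641 against 3810 to 4483 CPM. Vim, the only fibroblast marker with enough counts to be tested, rose in both, while Col1a1 did not exceed 1.30 CPM in any sample. Vim was at 16.3 to 21.3 CPM without and 29.6 to 73.1 CPM with irradiation in untreated cells. The part of these shifts in the values of Rrm2, Cdca7 and Mcm6 was not tested.

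The effect of VIP in irradiated cells was then compared with that in non-irradiated cells. No gene of the table passed this test by edgeR (0% of 9976 genes, 634 at an unadjusted p under 0.05), and neither did any of the 40. The median difference of the log2 fold changes was −0.13, with 30 of 40 estimates below 0. The 95% interval stayed within 1.5-fold for 18 of 40, beside 38% of all genes tested. Unadjusted p-values under 0.05 were reached by Dtl, the substrate adaptor that directs destruction of licensing factors in S phase (−0.63, SE 0.30, adjusted p = 0.775), Mcm5 (−0.36, SE 0.16, adjusted p = 0.740), Mcm7 (−0.34, SE 0.13, adjusted p = 0.687) and E2f8 (1.06, SE 0.42, adjusted p = 0.687), that is 4 of 40, beside 6.36% of all genes. The differences that kept one sign in all 4 mice were largest for E2f8, Pola1 (0.35, SE 0.20, adjusted p = 0.841) and Gmnn (0.07, SE 0.11, adjusted p = 0.970) upward and for Blm (−0.60, SE 0.40, adjusted p = 0.886), Cdc6 (−0.47, SE 0.23, adjusted p = 0.783) and Ung (−0.36, SE 0.33, adjusted p = 0.924) downward. For Mcm3 the difference was −0.47 (SE 0.16, adjusted p = 0.687) and for Cdkn1a 0.60 (SE 0.14, adjusted p = 0.543), so that a different response of these genes to VIP after irradiation was not shown.

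**Figure D4:**
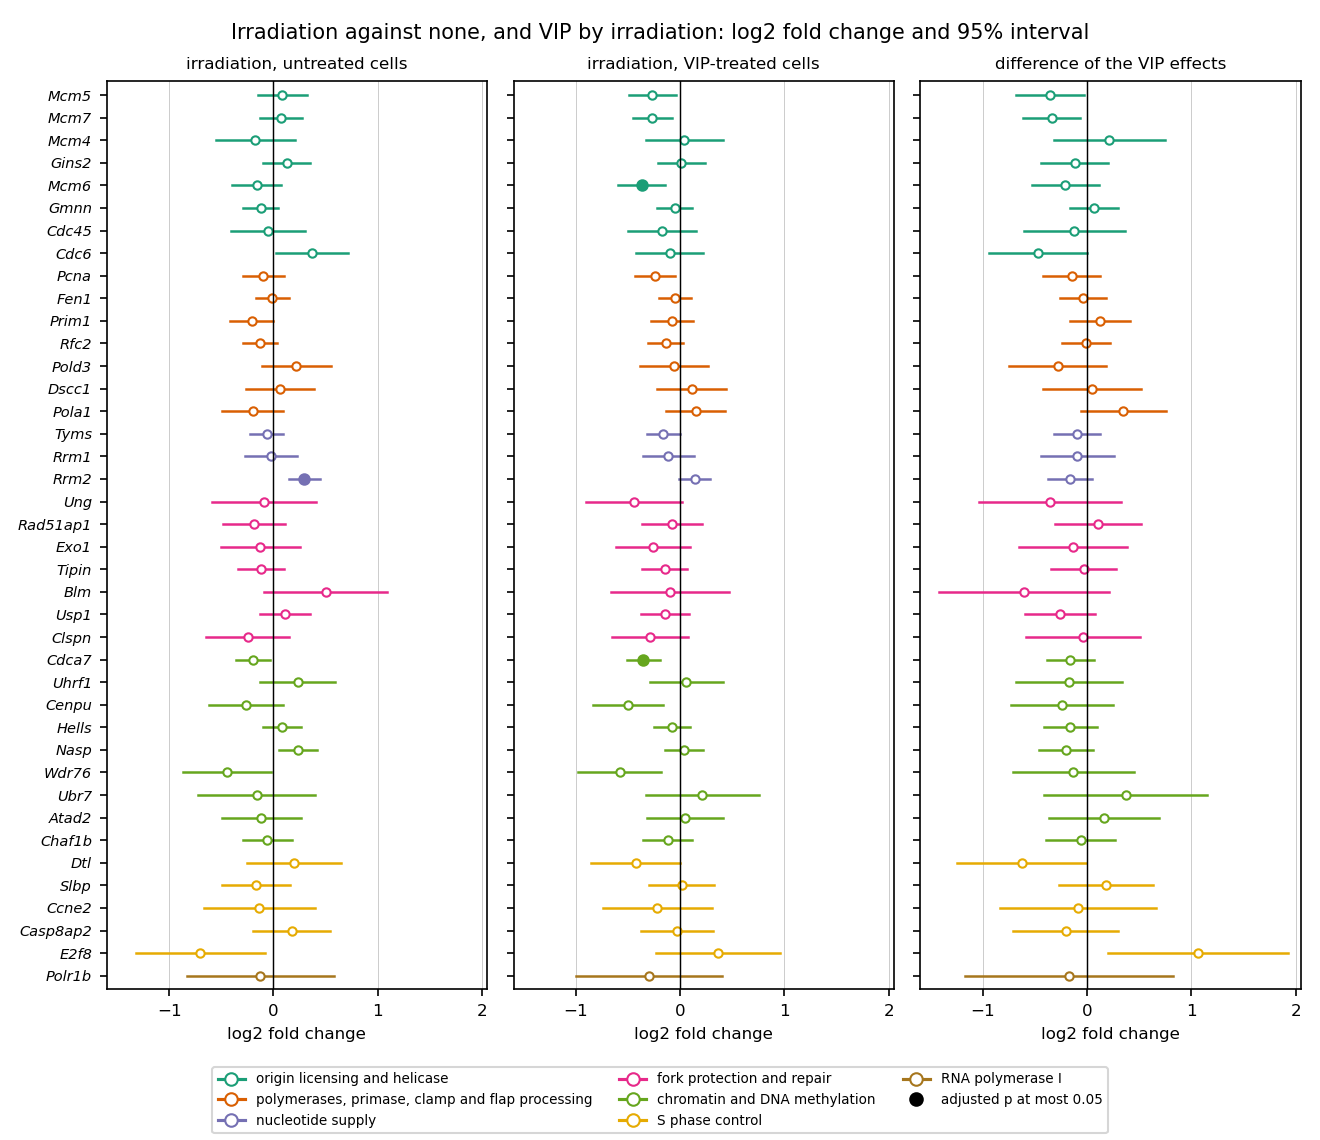
Log2 fold change and 95% interval of each of the 40 genes, coloured by role, for irradiation in untreated cells, irradiation in VIP-treated cells and the difference of the VIP effects (irradiated minus non-irradiated). Filled points have an adjusted p of 0.05 or less: Rrm2 in the first panel, Mcm6 and Cdca7 in the second and no gene in the third.

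The genes of the following G2 and M phases are given for comparison. With VIP, 0 of 50, 0 of 49, 0 of 50 and 0 of 50 such genes tested changed in whole organoids, in Lgr5-EGFP+ cells at 72 h and in non-irradiated and irradiated cells at 48 h, with median log2 fold changes of −0.01, 0.07, 0.05 and 0.03. With irradiation, 2 rose and 1 fell among 50 in untreated and in VIP-treated cells alike.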

How the data were processed

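RNA of whole organoids and sorted Lgr5-EGFP+ cells was read as 3′ libraries with UMIs. The authors aligned reads to GRCm38 with GENCODE M25 and counted UMIs with the Drop-seq pipeline. The deposited tables hold unnormalized UMI counts, and all columns were assigned to samples (0 left over). Technical libraries of a culture were summed. Counts were tested in R 4.3.3 with edgeR 4.0.16 (TMM, filterByExpr by group, quasi-likelihood test, mouse as a block, Benjamini-Hochberg over all genes tested, threshold 0.05). The 16 samples of the irradiation experiment shared 1 fit. Within-mouse directions used log2 CPM with a prior count of 2. The test was also run on simulated counts, drawn without differences between mice. That run is no check of the single results above.

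Within an experiment, same-numbered samples carry the same identifier in their labels, which was taken as the mouse. The numbers are reused between experiments for different identifiers. Deviations from group means correlated at 0.27 to 0.63 within mice and −0.54 to 0.33 between mice in whole organoids, at 0.03 to 0.21 and −0.14 to 0.15 in the first sorted experiment, and at −0.07 to 0.16 and −0.20 to 0.20 in the irradiation experiment.

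The 40 genes and all lists were chosen with earlier results of these data known. Named are all members past the threshold, the 3 largest rises and falls that went one way in every mouse, 10 genes representing the roles in each experiment, and of the pathway genes those past the threshold with Cdkn1a, Ccnd1, Ccne1, E2f1, Mcm2 and Mcm3; further names, such as genes with an unadjusted p under 0.05 or groups without overlap, were chosen after their values were seen. The alternatives were DESeq2 1.42.0, RLE factors, library size alone, other count filters, no mouse block, each mouse left out, no mitochondrial genes, first technical libraries and only the groups compared. Promoters are from RefSeq (GRCm38.p6) and gene positions from GENCODE M21.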

Additional observations from a re-analysis of the deposited data

Results flagged for a closer look

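Among 91 groups of 4 values (12 of the genes, and the sum over all 40, in each group), 6 values stood far from the other 3 of their group. Chance gives about 1 in 20. In VIP-treated whole organoids mouse 2 was low in the summed level of the 40 genes (2414 CPM, the nearest other 2724) and in Mcm6 (129.7 CPM, the nearest other 169.8), and its untreated sample was also the lowest of 3. In VIP-treated Lgr5-EGFP+ cells at 72 h, Slbp was high in mouse 2 (48.9 CPM, the nearest other 35.9). In the irradiation experiment Gmnn stood apart in mouse 1 in 3 groups: high after irradiation alone (214 CPM, the nearest other 173) and after irradiation with VIP (207 CPM, the nearest other 185), and low with VIP alone (183 CPM, the nearest other 199.8). For none of the 40 genes did a difference between the VIP effects of 2 experiments or arms pass its test.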

How the results depend on the processing

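The count of genes past the threshold among the 40 changed in these cases. In whole organoids it went from 0 to 1 with the first technical libraries alone, and in non-irradiated cells from 0 to 1 with only the groups compared. For irradiation in untreated cells it went from 1 to 0 with all genes of any count and with only the groups compared, and from 0 to 1 as each mouse was left out. For irradiation in VIP-treated cells it went from 2 to 1 with DESeq2, and from 1 to 4 as each mouse was left out (4 without mouse 1, 1 without mouse 4). The median of the 40 moved beyond its spread over mice when a mouse was left out for VIP in non-irradiated cells (0.074 to 0.15, with all mice 0.09) and for the VIP by irradiation difference (−0.17 to −0.043, with all mice −0.13). The median turned its sign for VIP in whole organoids with the first technical libraries alone (0.0079, with all libraries −0.02) and for VIP at 72 h without mouse 3 (−0.011, with all mice 0.03). The named genes recomputed kept their direction under every alternative run.

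Without the mouse as a replicate block the counts were the same, 0, 0, 0, 0, 1, 2, 0 and 0 in the 8 comparisons, while the calls over all genes went from 614 to 99 in whole organoids, from 6 to 1 in Lgr5-EGFP+ cells, from 74 to 34 and from 22 to 12 for VIP in non-irradiated and irradiated cells and from 15 to 0 between compartments. DESeq2 gave 300, 2, 44, 12, 281 and 489 calls over all genes where edgeR gave 614, 6, 74, 22, 445 and 776. With all genes of any count these became 979, 17, 182 and 110 for the 4 VIP comparisons, and 34 and 57 for the 2 differences. With library size as the only scaling they were 14 in Lgr5-EGFP+ cells and 9 between compartments, and in the groups compared alone 184 and 52 for VIP in non-irradiated and irradiated cells. As each mouse was left out, the calls ranged from 363 to 1668, 3 to 17, 32 to 42, 5 to 35, 176 to 643, 426 to 691, 0 to 1 and 4 to 41. Between compartments the first technical libraries gave 28. Leaving out the second technical library of VIP-treated mouse 3, chosen after the data were examined, gave 1261 calls in whole organoids and 27 between compartments, and leaving out its first gave 0 and 1, with 0 of the 40 genes called each time. The cause was not tested. The largest SE of a member was 0.18 in whole organoids and 0.36 in the first sorted experiment, whose libraries are the shallowest.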
